A study of Mus musculus with 24 samples.

Results

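Small RNA of mutant mouse hearts that had received an AAV9 control virus was compared with small RNA of mutant hearts left untreated, which addresses whether the vector alone shifts the microRNAs of the heart. The comparison used 5 of the 24 libraries of the study: control virus replicates 1, 2 and 3, and untreated replicates 9 and 11. Both groups carried a transgene with a mutated human allele of MYL2, the gene of the regulatory light chain of ventricular myosin, on a CD1 background, and the labels gave the genotype as RLC-47K L6 for all samples of the study, wild-type transgenics included. The control virus was an AAV9 that did not express the M7.8L shRNA. Per the design text, which names the shRNA virus alone, virus was injected into the jugular vein at 3 days of age in 25 µl, and hearts were taken at 4 months; the same schedule is taken to hold for the control virus. No source used here states the promoter of the transgene or a sham injection of the untreated mice. The table listed 568 microRNA hairpins in 11 libraries, and the 155 rows with a mean of at least 10000 FPKM (fragments per kilobase and per 1000000 mapped fragments) over these 11 libraries were tested. Levels are given in kFPKM, of 1000 FPKM, and MFPKM, of 1000000 FPKM. The rows just inside that minimum were miR-92a-2 with a mean of 10647 FPKM and miR-29b-2 with 10407, and those just outside it were miR-337 with 9795 and miR-879 with 9793. The other 6 small RNA libraries came from 4 mutant hearts with the shRNA virus and 2 wild-type transgenic hearts with control virus, and served the shared estimate of the spread. Nothing in the labels says that the libraries are technical repeats, and nothing states that each came from a separate animal, so the p-values measure the spread between these samples.

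MicroRNAs are short RNAs cut from hairpin transcripts. They guide repression of messenger RNAs, mainly through pairing of the seed, the bases near the 5′ end, so microRNAs with the same seed share predicted targets. The heart is known for microRNAs hosted in myosin genes (miR-208a, miR-208b and miR-499), and miR-208b, in an intron of Myh7, accompanies the fetal myosin programme of the stressed mouse ventricle.

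The sequences below belong to the microRNAs on which the results turn, taken from RefSeq (GRCm38.p6) and written 5′ to 3′ with seed bases 2 to 8 in capitals. The table counted whole hairpins, so both arms are shown for miR-434, miR-34a and miR-149, which were among the 5 rows with the smallest p, and for miR-142; miR-328 and miR-30d are named only. The 5p arms of miR-99a, miR-99b and miR-100 are shown because 1 control virus library was low in all 3.
mmu-miR-434-5p: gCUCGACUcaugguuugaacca
mmu-miR-434-3p: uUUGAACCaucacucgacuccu
mmu-miR-34a-5p: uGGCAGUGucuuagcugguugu
mmu-miR-34a-3p: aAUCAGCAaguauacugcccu
mmu-miR-149-5p: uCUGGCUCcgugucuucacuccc
mmu-miR-149-3p: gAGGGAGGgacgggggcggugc
mmu-miR-142a-5p: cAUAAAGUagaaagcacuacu
mmu-miR-142a-3p: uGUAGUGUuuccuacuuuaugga
mmu-miR-221-3p: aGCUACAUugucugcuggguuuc
mmu-miR-222-3p: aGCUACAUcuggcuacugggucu
mmu-miR-99a-5p: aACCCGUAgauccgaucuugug
mmu-miR-99b-5p: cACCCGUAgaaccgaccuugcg
mmu-miR-100-5p: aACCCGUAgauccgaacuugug
mmu-miR-208b-3p: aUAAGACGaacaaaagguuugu
The 3 microRNAs of the miR-99 and miR-100 family have 1 seed in common, ACCCGUA, which no other mature microRNA of the sequence table held. The 3p arms of miR-221 and miR-222 likewise share GCUACAU, and the seed of miR-34a-5p was found in 4 mature microRNAs of the table, among them miR-34b-5p.

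Whole reads could be read back from the deposited values, because 1 read was worth a fixed FPKM for each hairpin length in each library. All 2030 values of at least 1 and under 3000 reads in the resolved rows lay within 0.02 of a whole read (100% of values). MicroRNA reads numbered 187634, 106627 and 56130 in control virus replicates 1, 2 and 3, against 190015 and 249101 in untreated replicates 9 and 11. Both untreated libraries were deeper than every control virus library, and replicate 3 of the control virus was the shallowest. Control virus replicate 2 stood apart in a few rows, among them miR-99b and miR-100, shRNA replicate 8 had levels unlike the other shRNA libraries, and 1 untreated heart was male while the other 4 were female; values without these libraries are given beside the results they touch. A read in a 64-base hairpin was worth 22.4 times the FPKM of a read in a 110-base hairpin, so FPKM levels are not compared between microRNAs below, and RPM, reads per 1000000 microRNA reads of a library, stands in their place. Mean reads per library over the 11 libraries were at least 10 in 115 of the tested rows and under 10 in 40.

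Cardiac, endothelial and smooth muscle microRNAs were present in both groups, with the exception of miR-1 and miR-133a, which are known as abundant in heart muscle. The miR-1-1 hairpin had 2, 0 and 0 reads in control virus replicates 1, 2 and 3, and 1 and 3 reads in the untreated libraries. The other hairpin of miR-1 and the first of miR-133a had 0 reads in all 5 libraries, and the other miR-133a hairpin had at most 1. These rows cannot be read as heart expression of miR-1 or miR-133a, and the cause was not tested. Hairpin length affects a ranking by FPKM: of the 10 rows with the highest mean FPKM, 7 were among the 10 with the most reads. miR-148a ranked 4 by reads and 12 by FPKM. Among the 10 by FPKM, miR-191 had 60.8, 62.0 and 70.9 MFPKM with control virus, against 64.1 and 70.0 MFPKM untreated. miR-10b, a further one, had 32.4, 37.4 and 38.3 MFPKM with control virus, against 59.8 and 32.1 MFPKM untreated. Both overlapped between the groups, with untreated replicate 9 the highest library for miR-10b. The cardiac marker rows, which include miR-208a, miR-208b and miR-499, summed to 69081, 55286 and 55247 RPM in control virus hearts, against 52385 and 58253 in untreated hearts. The ranges of the groups overlapped. The most abundant row by reads in both groups was miR-143, a smooth muscle microRNA, with 16.2% to 18.8% of microRNA reads, followed by miR-126, an endothelial microRNA, with 10.8% to 12.7%. The skeletal muscle row miR-206, the 3 adipocyte rows of miR-196 and 8 of 10 nerve rows had 0 reads in all 5 libraries. The liver rows, led by miR-192, summed to 8176, 8356 and 7500 RPM with control virus, against 8047 and 7716 untreated, and the kidney and gut rows, led by miR-215, to 698, 441 and 1568 against 1437 and 598. Both lists overlapped between the groups.

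No microRNA passed in hearts with control virus compared with untreated hearts. Of 155 rows, 0 had a Benjamini-Hochberg adjusted p under 0.05 by limma (0.0% called), and the smallest adjusted p was 0.979. An unadjusted p under 0.05 was reached by 5 rows (3.23%), of which miR-434 and miR-34a were higher and miR-328, miR-30d and miR-149 were lower with control virus. A weighted limma-voom fit on the recovered reads of the 115 rows with at least 10 reads also called 0, with 4 at an unadjusted p under 0.05. In FPKM the groups did not overlap in 29 rows (18.7% of the rows tested), 13 of them higher (8.39%) and 16 lower (10.3%) with control virus. Some of these rows overlapped in RPM, as given below. Differences fell about evenly on both sides, as 78 rows were higher and 77 lower, and the median log2 difference was 0.01.

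The absence of calls does not show that the groups are alike, so the intervals were counted. In 58 rows (37.4%) the 95% interval of the log2 difference lay within -1 and 1, that is within a 2-fold change either way, and in 25 it lay within a 1.5-fold change. All 58 were among the 115 rows with a mean of at least 10 reads, and 0 of the 40 rows under 10 reads had such an interval. The median absolute log2 difference was 0.20 in the rows with at least 10 reads and 0.58 in the rows with fewer. The median width of the interval was 1.45 in the rows with at least 10 reads and 5.51 in the rows with fewer. A difference past 1 on the log2 scale was seen in 1 row with at least 10 reads, that of miR-122, and in 12 rows with fewer. The miR-122 row had 1, 1 and 1 reads with control virus, against 7 and 5 untreated. It reached a mean of 10 only through the libraries outside the comparison.

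**Figure D1:**
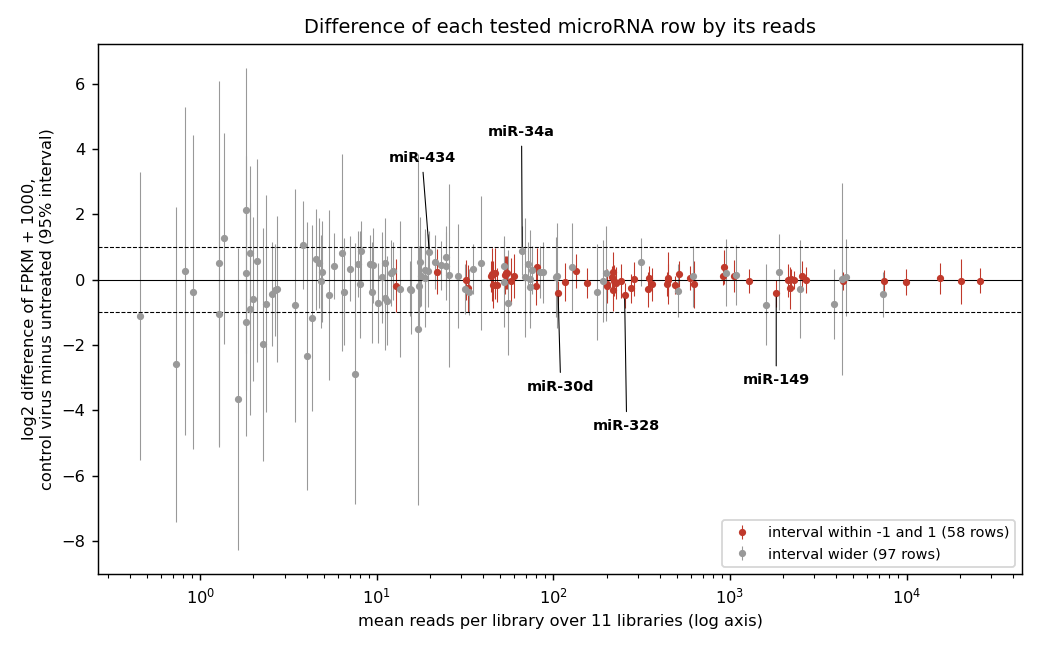
Log2 difference of FPKM + 1000 (control virus minus untreated, y axis) of the 155 tested microRNA rows against mean reads per library over 11 libraries (x axis, log axis), with 95% limma intervals as bars. The 58 rows whose interval lies within -1 and 1 (red) stand at 10 reads or more, and 0 rows passed.

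Distances between libraries of different groups overlapped with distances between libraries of the same group. The median absolute log2 difference over the 155 rows was 0.27 between the group means. Between single libraries of different groups it ran from 0.22, for control virus replicate 1 and untreated replicate 11, to 0.36, for control virus replicate 3 and untreated replicate 11. Within the control virus group it was 0.40 for replicates 1 and 2, 0.36 for replicates 1 and 3 and 0.33 for replicates 2 and 3, and within the untreated group it was 0.29. Over all 155 rows the lowest of the 10 pairs was thus 1 of different groups and the highest was 1 within the control virus group. Over the 115 rows with at least 10 reads, pairs of different groups ran from 0.18 to 0.33 and pairs of the same group from 0.20 to 0.31, and the highest was control virus replicate 2 with untreated replicate 11.

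**Figure D2:**
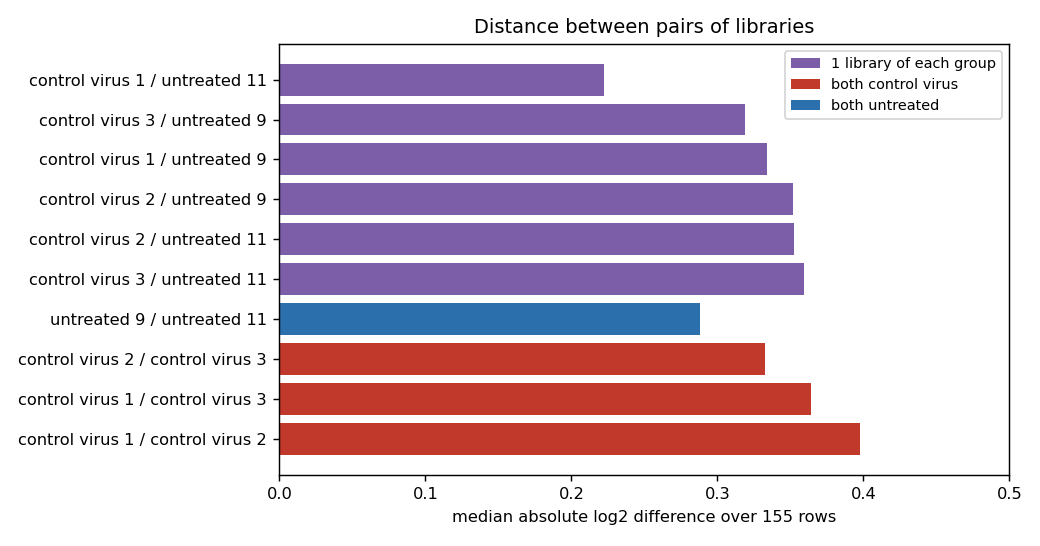
Median absolute log2 difference of FPKM + 1000 over 155 rows (x axis) for each of the 10 pairs of libraries (y axis). The 6 pairs of 1 library of each group run from 0.22 to 0.36, and the 3 control virus pairs from 0.33 to 0.40.

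The row with the smallest p, miR-328, is known from work on atrial tissue as a repressor of L-type calcium channel subunits. It had 363, 371 and 379 kFPKM in control virus replicates 1, 2 and 3, against 578 and 465 kFPKM in untreated replicates 9 and 11, from 247, 156 and 73 against 375 and 414 reads. All 3 control virus libraries were close to each other and below both untreated libraries. Per depth, control virus replicate 2 had 1463 RPM (95% exact Poisson interval 1242 to 1711, counting error only). Untreated replicate 11 had 1662 RPM (1506 to 1830), and these intervals overlapped. The interval of control virus replicate 3 also overlapped that of untreated replicate 11. That of replicate 1 did not, and none overlapped that of untreated replicate 9. The means were 371 ± 7.72 kFPKM with control virus (SD, n = 3) and 521 ± 79.6 kFPKM untreated (SD, n = 2), a log2 difference of -0.48 (95% interval -0.86 to -0.11, adjusted p = 0.979 by limma). miR-30d, of the miR-30 family, known in rodent heart cells as a repressor of connective tissue growth factor, had 391, 386 and 378 kFPKM with control virus, against 544 and 484 kFPKM untreated, a log2 difference of -0.41 (95% interval -0.78 to -0.04, adjusted p = 0.979 by limma). The control virus libraries again lay below both untreated ones, from 113, 69 and 31 against 150 and 183 reads. Per depth, the Poisson interval of each control virus library overlapped those of both untreated libraries. Control virus replicate 1 had 602 RPM (496 to 724) and untreated replicate 11 had 735 RPM (632 to 849). The unadjusted p of miR-30d was 0.0775 by limma in RPM and 0.0825 by limma-voom. The other miR-30 rows did not share the order that miR-30d had in FPKM. miR-30a, the most abundant of them by reads, had 133, 156 and 156 MFPKM with control virus, against 167 and 124 MFPKM untreated, and its groups overlapped.

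miR-149, transcribed from an intron of the glypican gene Gpc1, had 32.1, 23.4 and 33.4 MFPKM with control virus, against 41.8 and 36.9 MFPKM untreated, from 2229, 1008 and 658 against 2776 and 3361 reads. All control virus libraries were below the untreated ones, and replicate 2 was the lowest. The log2 difference was -0.42 (95% interval -0.84 to -0.01, adjusted p = 0.979 by limma), and it was -0.26 without replicate 2 of the control virus.

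In the other direction, miR-34a, which p53 induces and which represses Sirt1, had 129, 147 and 160 kFPKM with control virus, against 78.0 and 77.4 kFPKM untreated. The 3 control virus libraries were all above the untreated pair, whose values were close. Reads were 111, 78 and 39 against 64 and 87. Per depth, control virus replicate 3 had 695 RPM (95% exact Poisson interval 494 to 950, counting error only) and untreated replicate 9 had 337 RPM (259 to 430), so these intervals did not overlap. Means were 145 ± 15.5 kFPKM with control virus (SD, n = 3) and 77.7 ± 0.473 kFPKM untreated (SD, n = 2), a log2 difference of 0.89 (95% interval 0.14 to 1.64, adjusted p = 0.979 by limma). The rows of miR-34b and miR-34c were not among the tested rows.

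miR-434, processed from the imprinted Dlk1-Dio3 region of chromosome 12, had 68.4, 74.6 and 66.4 kFPKM with control virus, against 35.8 and 41.8 kFPKM untreated. The control virus libraries were above both untreated ones, on 40, 27 and 11 against 20 and 32 reads. The log2 difference was 0.83 (95% interval 0.16 to 1.50, adjusted p = 0.979 by limma). Per depth, the 11 reads of control virus replicate 3 came to 196 RPM (95% exact Poisson interval 97.8 to 351) and the 32 reads of untreated replicate 11 to 128 RPM (87.9 to 181), and these intervals overlapped. Of 12 tested rows of the Dlk1-Dio3 region, 0 passed in either direction, 5 were higher and 7 lower with control virus, and their median log2 difference was -0.24, beside 0.01 over all rows. With sex as a covariate that median was 0.04, and over the 4 rows with at least 10 reads it was 0.06. The sex term rests on the untreated and shRNA groups alone, and in the latter on replicate 8 as the only female. Only 4 of these 12 had a mean of at least 10 reads: miR-434, miR-541 with a log2 difference of 0.33, miR-411 with -0.20 and miR-136 with -0.28.

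**Figure D3:**
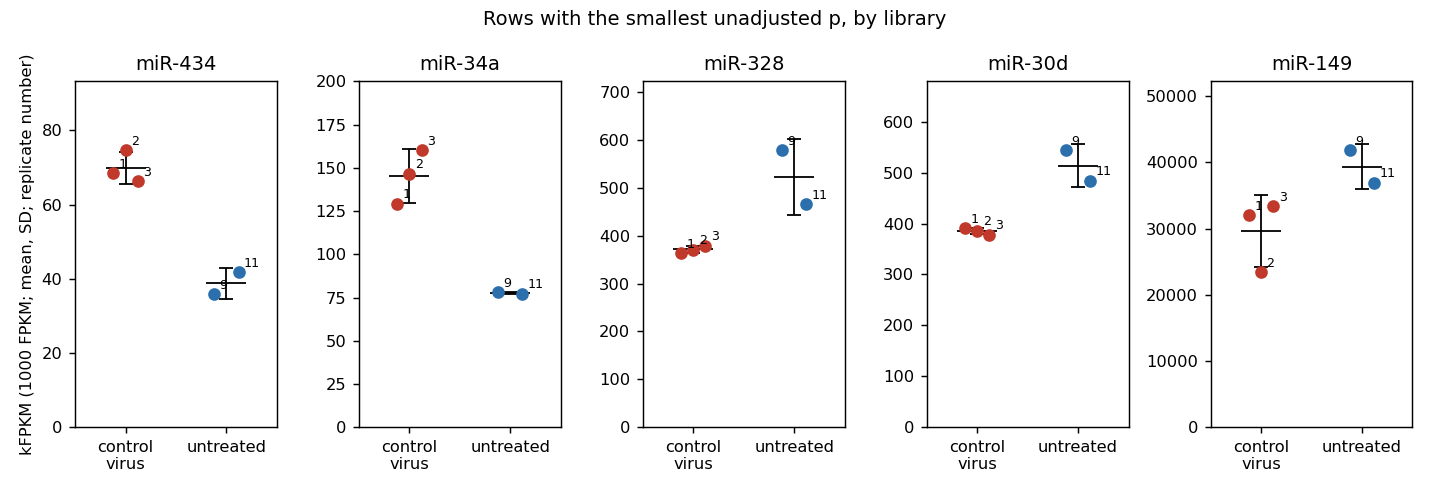
kFPKM (y axis from 0, a scale for each panel) of the 5 microRNA rows with the smallest unadjusted p, in control virus libraries (red, left) and untreated libraries (blue, right); points are libraries with their replicate number, bars mean and SD. The groups do not overlap in any of the 5, and 0 of them passed after adjustment.

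Among the 10 rows named on each side by smallest p, the groups did not overlap in 8 of the higher and 5 of the lower rows, beside 18.7% of all rows tested; the choice by smallest p favours such rows, so nothing is read from this count. miR-221, which represses the cell cycle inhibitor Cdkn1b, had 853, 974 and 986 kFPKM with control virus, against 650 and 637 kFPKM untreated, a log2 difference of 0.54 (95% interval -0.18 to 1.26, adjusted p = 0.979 by limma). The control virus libraries were all above the untreated ones. Its seed partner and chromosomal neighbour miR-222 had 1.38, 2.07 and 1.69 MFPKM with control virus, against 1.63 and 1.35 MFPKM untreated, so its groups overlapped. miR-199b had 125, 145 and 103 kFPKM with control virus, against 82.6 and 94.5 kFPKM untreated, and miR-92b had 87.4, 126 and 114 kFPKM against 74.6 and 74.2 kFPKM. Neither pair of groups overlapped, and the intervals of both differences held 0. With sex as a covariate the log2 differences of miR-221, miR-199b and miR-92b were 0.30, 0.21 and 0.26. These values too depend on shRNA replicate 8, the only female of its group. miR-140 and miR-20a were higher on average with overlapping groups. Rows with few reads stood in both sets: miR-1947 had 17, 7 and 4 reads with control virus, against 7 and 10 untreated, miR-92a-2 had 7, 5 and 1 with control virus, against 2 and 4 untreated, and miR-185 had 0, 2 and 0 with control virus, against 5 and 2 untreated. Hairpins that give the same mature sequence share reads in an unknown way, and with its copies summed miR-92a had a log2 difference of -0.15 in place of the 1.07 of miR-92a-2. With at most 5 reads a library, the log2 difference of miR-185, -3.65 with an interval of -8.28 to 0.98, rests on the added 1000 FPKM and is no measure of its size. miR-24-1, with 5, 10 and 0 reads with control virus, against 12 and 21 untreated, was of the same kind, with a log2 difference of -2.88 in all libraries and -0.65 without control virus replicate 3, while the second copy of that microRNA, miR-24-2, had a log2 difference of -0.15. On the lower side, miR-151 and miR-181b-2 had log2 differences of -0.17 and -0.26 with groups that did not overlap in FPKM. In RPM the groups of miR-151 overlapped, with control virus replicate 2 the highest library.

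The 8 blood marker rows summed to 25502, 29767 and 22127 RPM with control virus, against 18999 and 21835 untreated. These sums did not overlap, but control virus replicate 3 lay close to untreated replicate 11. Of the 6 tested, 0 passed and 5 were higher, with a median log2 difference of 0.13. Only miR-142 had groups without overlap, 1 of 6 beside 18.7% of all rows tested. Its RPM were 7717, 12614 and 7821 with control virus, against 6152 and 7154 untreated. miR-142, the microRNA of blood cells generally, had 27.0, 40.5 and 28.8 MFPKM with control virus, against 22.8 and 25.3 MFPKM untreated, a log2 difference of 0.39 (95% interval -0.14 to 0.92, adjusted p = 0.979 by limma). Replicate 2 of the control virus was the highest and both untreated libraries were lowest, and without replicate 2 the log2 difference was 0.21. miR-451, of red cells, had 17.2, 12.7 and 10.6 MFPKM with control virus, against 9.58 and 13.2 MFPKM untreated, and miR-155 of activated lymphoid and myeloid cells had 0.62, 1.00 and 0.81 MFPKM against 0.92 and 0.55 MFPKM. Both overlapped. The myeloid row miR-223 had at most 6 reads in any of the 5 libraries. Fewer cells of a type and less RNA per cell cannot be told apart in these bulk samples, and the part of blood in the other rows was not tested.

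The microRNAs linked to virus infection and inflammation gave 0 passing rows of 14 tested, 8 higher and 6 lower, with a median log2 difference of 0.04. Their groups did not overlap in 1 higher row, miR-142, and 3 lower ones, miR-122, miR-181b-2 and miR-29a, 4 of 14 rows beside 18.7% of all rows tested. miR-29a had 14.0, 13.2 and 13.9 MFPKM with control virus, against 14.0 and 14.1 MFPKM untreated, and its interval of -0.31 to 0.23 was among the narrow ones. In RPM its groups overlapped, with control virus replicate 2 the highest library. miR-122, the liver microRNA, rested on 1, 1 and 1 reads with control virus, against 7 and 5 untreated.

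Of 14 tested rows of cardiac stress and hypertrophy, 0 passed, 9 were higher and 5 lower, and the median log2 difference was 0.21. miR-34a, miR-221, miR-199b and miR-27a were the 4 rows of 14 higher without overlap, beside 8.39% of all rows tested. Of these, miR-27a rested on few reads, 10, 6 and 3 with control virus, against 7 and 10 untreated. miR-21, raised in many stressed hearts and abundant in fibroblasts, had 317, 565 and 476 kFPKM with control virus, against 328 and 502 kFPKM untreated, and its groups overlapped. Its log2 difference was 0.12 with an interval of -1.49 to 1.72, and of -0.82 to 1.055 without shRNA replicate 8. Lower without overlap in FPKM were 3 rows, beside 10.3% of all rows tested: miR-212, miR-22 and miR-24-2, with log2 differences of -0.64, -0.24 and -0.15. In RPM the groups of miR-22 and miR-24-2 overlapped. miR-24-2 had 4376, 5374 and 4205 RPM with control virus, against 4868 and 4910 RPM untreated. In female hearts alone the median of the list was -0.11 and 6 of its 14 rows were higher.

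The antifibrotic rows of miR-29, miR-30 and miR-101 numbered 9 tested, of which 0 passed, 4 were higher and 5 lower, with a median log2 difference of -0.02. The let-7 family, which limits proliferation, had 10 tested rows, 0 passing, 4 higher and 6 lower, with a median of -0.01, and 9 of the 10 intervals lay within a 2-fold change. The exception was let-7f-2, with 8, 13 and 7 reads with control virus, against 13 and 12 untreated. Of 5 tested rows of the miR-15 and miR-16 family, which restrains the cell cycle of the postnatal heart, 0 passed and 4 had intervals within a 2-fold change. miR-195, a member of that family, had 573, 489 and 651 kFPKM with control virus, against 552 and 610 kFPKM untreated, and overlapped. The muscle list had 5 tested rows, 0 of which passed, with a median of 0.05.

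**Figure D4:**
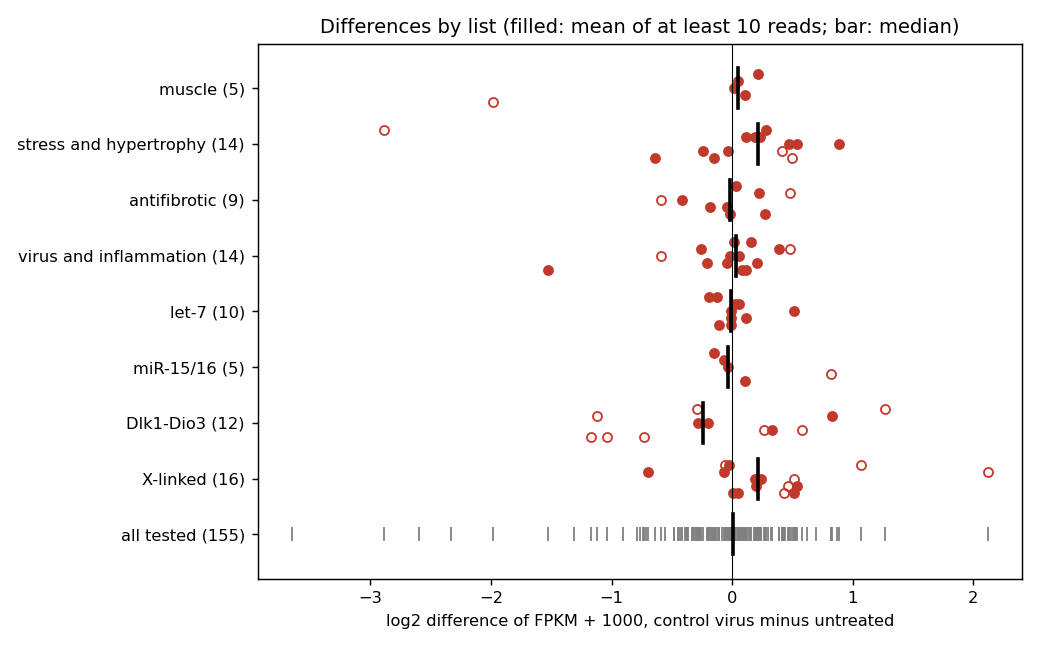
Log2 difference of FPKM + 1000 (control virus minus untreated, x axis) of the tested rows of each list (y axis, number of tested rows in parentheses) and of all 155 rows; filled points have a mean of at least 10 reads, open points fewer, and black bars are medians. List medians run from -0.24 (Dlk1-Dio3) to 0.22 (X-linked), and 0 rows of any list passed.

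Control virus replicate 2 stood apart in a small set of microRNAs. miR-100 had 10312, 2203 and 9899 kFPKM in control virus replicates 1, 2 and 3, against 11486 and 9328 kFPKM untreated. miR-99b had 59.4, 16.0 and 55.6 MFPKM with control virus, against 56.1 and 69.9 MFPKM untreated. miR-99a, of the same seed, had 58.6, 33.8 and 57.4 MFPKM with control virus, against 58.7 and 57.6 MFPKM untreated. Replicate 2 was the lowest of 5 in each, at 23.6%, 28.7% and 58.9% of the next lowest library, and the other 2 control virus libraries lay among or close to the untreated ones. miR-125a, which is made from the same cluster as miR-99b, had 120, 60.6 and 136 MFPKM with control virus, against 144 and 129 MFPKM untreated. let-7e, the third microRNA of that cluster, had 632, 594 and 597 kFPKM against 675 and 633 kFPKM, and let-7c-1 and miR-125b-2, cluster partners of miR-99a, were at 105% and 93.8% of the next lowest library in replicate 2. The low values of replicate 2 were thus not seen in every member of these clusters. miR-145, a smooth muscle microRNA, had 6.10, 2.58 and 6.51 MFPKM with control virus, against 6.23 and 5.59 MFPKM untreated, while its neighbour miR-143 had 713, 684 and 729 MFPKM with control virus, against 689 and 767 MFPKM untreated. Replicate 2 was lowest in both, at 46.2% of the next lowest library for miR-145 and 99.2% for miR-143.

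Over the 115 rows with at least 10 reads, replicate 2 lay more than 1 on the log2 scale below all other 4 libraries in 4 rows (miR-100, miR-145, miR-501 and miR-99b) and above them in 1 (miR-204). Replicate 3 did so in 1 row each way, and the other 3 libraries in 0. The log2 differences of miR-99b, miR-100 and miR-125a were -0.74, -0.77 and -0.45 with all libraries, and -0.12, -0.03 and -0.09 without replicate 2, with intervals of -0.53 to 0.28, -0.39 to 0.32 and -0.47 to 0.29. These 3 microRNAs stood among the 10 lower rows with the smallest p through 1 library. miR-501 had 111, 12 and 32 reads with control virus, against 94 and 141 untreated, with a log2 difference of -0.70 in all libraries and 0.12 without replicate 2.

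**Figure D5:**
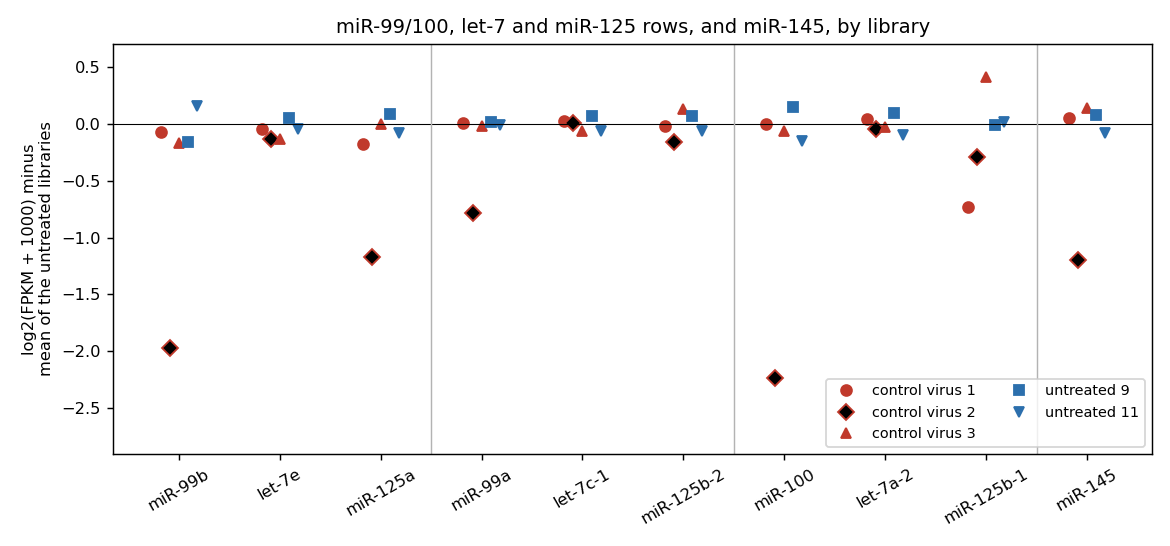
Log2(FPKM + 1000) of each library minus the mean of the untreated libraries (y axis) for the rows of 3 miR-99/100, let-7 and miR-125 clusters, separated by grey lines, and for miR-145 (x axis). Control virus replicate 2 (black diamonds) is lowest in miR-99b, miR-125a, miR-99a, miR-100 and miR-145. It is also lowest, by less, in let-7e and miR-125b-2, at 99.4% and 93.8% of the FPKM of the next lowest library. In let-7c-1 and let-7a-2 it lies near the other libraries.

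Sex differed between the groups. By the polyA libraries of the same hearts, in which a heart with more than 5 FPKM of the Y-linked gene Ddx3y was taken as male, control virus replicates 1, 2 and 3 and untreated replicate 11 were female and untreated replicate 9 was male. The X-linked microRNAs summed to 9588, 11564 and 10547 RPM with control virus, against 8757 and 8715 untreated, so the groups did not overlap. Of 16 tested X-linked rows 0 passed, 12 were higher, and the median log2 difference was 0.22. With the female hearts alone, 3 control virus libraries against untreated replicate 11, 13 of the 16 were higher and the median was 0.25, beside 0.01 over all rows. With sex as a covariate, 9 of the 16 were higher and the median was 0.13, beside -0.02 over all rows. The part of sex in these rows cannot be told apart from that of the virus with 1 untreated heart of each sex. The male library was also the extreme one in miR-328, miR-30d, miR-149 and miR-434. In female hearts alone their log2 differences were -0.33, -0.33, -0.34 and 0.72, and that of miR-34a was 0.90. That fit assumes that the single untreated female varies as the other groups do. With sex as a covariate the log2 differences of miR-328, miR-30d and miR-149 were -0.32, -0.32 and -0.34. Those of miR-434 and miR-34a were 0.63 and 0.76 with that covariate. The sex term came only from the untreated and shRNA groups, since the control virus mutants were all female and both wild-type hearts male. In the shRNA group it set replicate 8, with levels unlike the others, against males, so sex and that library cannot be told apart there.

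The cardiac microRNAs whose mutant levels lay far from the wild-type levels did not separate control virus from untreated mutants. miR-208b was 46.7 ± 9.58 MFPKM in mutants with control virus (SD, n = 3) and 45.7 ± 2.73 MFPKM in untreated mutants (SD, n = 2), beside 1.81 ± 0.207 MFPKM in wild-type transgenics with control virus (SD, n = 2). Library by library, it had 56.9, 37.9 and 45.4 MFPKM with control virus, against 43.7 and 47.6 MFPKM untreated, and the untreated pair lay inside the range of the control virus libraries. Its log2 difference was 0.01, with an interval of -2.93 to 2.96 in the fit over 11 libraries and of -0.76 to 0.79 without shRNA replicate 8. That library had 64.5 MFPKM of miR-208b, while shRNA replicates 5, 6 and 7 had 1.62, 1.62 and 3.56 MFPKM, and it widened the shared spread of this row. It was the only female among the shRNA hearts, and both wild-type hearts were male. Untreated mutant replicate 9, the male one, had 43.7 MFPKM of miR-208b. The part of sex in these levels was not tested. miR-499, hosted by Myh7b, was 2.56 ± 0.117 MFPKM with control virus, 2.24 ± 0.568 MFPKM untreated and 6.66 ± 1.26 MFPKM in wild type. miR-208a, from the adult myosin gene Myh6, was 3.69 ± 0.726 MFPKM with control virus, 3.37 ± 0.158 MFPKM untreated and 6.51 ± 1.04 MFPKM in wild type. For these 3 rows the control virus and untreated ranges overlapped and both lay on the same side of the wild-type pair. miR-21 was 453 ± 125 kFPKM with control virus, 415 ± 123 kFPKM untreated and 80.7 ± 32.4 kFPKM in wild type.

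In the same 155 rows and the same fit, mutants against wild type, both with control virus, gave 0 passing rows (0.0%), with 35 at an unadjusted p under 0.05, and shRNA virus against control virus gave 0 (0.0%), with 33. With shRNA replicate 8 left out, chosen after seeing the data, these were 24 (15.5%) and 37 (23.9%), and control virus against untreated remained at 0, with 6 at an unadjusted p under 0.05. These comparisons share the control virus libraries of the mutants, which were all female. Both wild-type hearts were male, so genotype cannot be told apart from sex, with or without shRNA replicate 8. shRNA replicates 5, 6 and 7 were male too, so without replicate 8 the shRNA cannot be told apart from sex either.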

How the data were processed

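Small RNA was sequenced as 50-base single reads, per the labels. The authors deposited 1 table of FPKM values with a column per library. Per the submitters' processing notes, FastQC 0.11.2, STAR 2.40, Cufflinks 2.2.1 and Cuffdiff were used with build mm9; no source used here states the step of each, the microRNA annotation or any scaling. The members and lists were chosen with earlier results of these data known.

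FPKM was taken as log2(FPKM + 1000) for rows with a mean of at least 10000 over 11 libraries. A linear model of the 4 groups with no covariate (limma 3.58.1, R 4.3.3; lmFit, then eBayes with its trend option; two-sided) was used, adjusted by Benjamini-Hochberg over 155 rows, with adjusted p under 0.05 as the threshold. Fold changes are on the log2(FPKM + 1000) scale, which shrinks changes of values near or below 1000 FPKM. In a 64-base hairpin 1 read was worth 14.2 to 65.7 kFPKM in the compared libraries. A step from no reads to 1 read can therefore give a large log2 difference in rows with few reads. Whole reads were recovered by dividing each FPKM by that of 1 read, from an effective length computed with fragments of mean 200 and SD 80 from 50 bases up. Hairpin lengths came from RefSeq for 153 tested rows and from the values for 2, and 6 low rows were not resolved. Poisson intervals and depth cover counting error only. Rows were named as the up to 10 with the smallest p each way (fewer than 5 passed), the 10 with the highest mean FPKM, and list members. Alternatives covered pseudocounts, filters, scaling, sex, summed copies and left-out libraries; limma-voom, added after seeing the data, weighted the recovered reads. A sex call used Ddx3y above 5 FPKM in the deposited polyA table, also in FPKM. The fit was also run on simulated normal values with known changes. These lack the whole-read steps, unequal depth and outlying libraries of the data, so nothing is read from them.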

Additional observations from a re-analysis of the deposited data

How the results depend on the processing

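The count of passing rows was 0 under all 27 alternatives, among them a pseudocount of 100, filters of 1000 and 100000 FPKM, equal totals, median alignment, sex as a covariate and an adjusted p under 0.1; unadjusted p under 0.05 was reached by 0 to 12 rows, and the smallest adjusted p was 0.112, without a filter. Leaving out each of the 5 libraries or shRNA replicate 8 in turn gave 0 in each case, 35 to 71 rows with an interval within a 2-fold change (58 in all libraries, 35 without untreated replicate 11) and a median absolute log2 difference of 0.24 to 0.33. Without a filter on low values 352 of 568 rows had such an interval and the median was 0, as most rows are at 0. The median absolute log2 difference of 0.27 was 0.21 with a pseudocount of 10000, 0.48 with a pseudocount of 1 and a mean of at least 1 FPKM, 0.32 with a mean of at least 1000 FPKM, 0.16 with 100000 FPKM and 0.33 with sex as a covariate. It was 0.18 in RPM (reads scaled to 1000000) over rows with at least 10 reads, 0.21 in the weighted fit on whole reads, 0.21 in that fit on the compared groups alone and 0.14 in that fit without control virus replicate 2. The counts of mutant against wild type were 18 without the shRNA group and 24 without shRNA replicate 8, and of shRNA against control virus 37 without it; the cause was not tested. Of 20 named rows, 1 turned direction: miR-92a-2, whose value was -0.15 with its paralogous rows summed. No paired analysis was possible because the groups share no replicate number. Rows under 10 reads, 40 of 155, limit what can be seen.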
